A study of Mus musculus with 8 samples.

Results

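Collagens outside the basement membrane were followed in basal keratinocytes sorted from mouse back skin. The set was every probe of the deposited expression matrix whose gene symbol has the collagen form (Col, a type number, a and a chain number), leaving out the type IV, VII and XVII chains of the basement membrane and its anchoring structures. It held 45 probes for 29 genes, out of 25697 probes for 16593 genes on the Illumina MouseRef-8 bead array. A probe was taken as measured where its detection p-value, which sets the probe against negative control beads, was under 0.05 on 2 or more of the 8 arrays. This was met by 14 probes for 11 of the 29 genes, and by 14252 probes for 9545 genes of the whole array.

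The mice carried 1 Gli1-eGFP allele (Gli1-eGFP/+, outcrossed Swiss Webster background) and were adults in telogen, the resting phase of the hair cycle. All groups came from these mice, and all cells were viable and stained for α6 integrin, the surface protein that marks basal keratinocytes. Each replicate pooled 2 mice. Cells with GFP formed the Gli1+ group (2 arrays, replicates 2 and 3), which the labels call hedgehog-responding; the RNA of its replicate 1 was not good enough to analyse. GFP-negative cells with the bulge stem cell marker CD34 formed the CD34+ group (3 arrays), and GFP-negative cells without CD34 the interfollicular epidermis group (IFE, 3 arrays). The IFE gate is defined by the lack of both markers, and the reporter reads Gli1 expression only.

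Collagens are secreted or membrane proteins whose chains wind into helical trimers. Type I, III and V chains assemble into the fibrils of the dermis, fibril-associated collagens decorate these fibrils, and type VI forms beaded filaments next to basement membranes. Fibroblasts are the main source of fibrillar collagen in skin, while keratinocytes are best known for type IV, VII and XVII chains. Type XV and XVIII chains stay in the set by its naming rule although both proteins lie in basement membrane zones.

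The sorted CD34+ samples gave more signal than the IFE samples for the collagen VI chains Col6a1 and Col6a2 and for Col8a2, Col5a2, Col18a1 and Col1a2. They gave less for the transmembrane collagen Col23a1. Col18a1 differed by its brighter probe but not by its other kept probe, and the calls of Col1a2 and Col23a1 were lost in some alternatives. Whether the RNA came from CD34+ cells or from carried-over dermal cells was not tested. In Gli1+ cells 1 collagen, Col6a2, passed the threshold against IFE cells. Col6a1, by its brightest probe, and Col8a2 were lower in Gli1+ than in CD34+ cells. These Gli1+ calls were lost where only the 2 groups compared were fitted, and in further alternatives given below. The other fibrillar chains typical of dermis, Col1a1 and Col3a1, were detected on 1 array and on no array. Levels below are background-corrected, quantile-normalised log2 intensities. Differences are log2 differences ± SE from limma's test over all 9545 measured genes and 8 arrays, with Benjamini-Hochberg adjusted p-values; the threshold is an adjusted p under 0.05. A probe not detected on any array of a group has only an upper bound there, so its fold is a lower bound ("at least"), taken against each array's lowest detected intensity or the gene's own level where higher. A fold given "as fitted" has a dimmer group in which 1 array detected the probe and the others did not, so it rests in part on values not above background. Levels of different probes are not compared with each other, since probes differ in brightness.

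The sequences just upstream of the start of 4 collagen genes that were higher in CD34+ cells are shown, because all 4 were higher in CD34+ than in IFE cells and 2 of them, Col6a1 and Col6a2, are neighbours on chromosome 10. They are from the RefSeq table of the GRCm38.p6 assembly, 250 bases ending at the base before the annotated start (for Col6a2, the more upstream of 2 listed starts), 5′ to 3′ on the gene's strand. Capitals mark matches, on either strand, to a CCAAT box (CCAAT), a GC box (GGGCGG) or an AP-1 site (TGANTCA).
Col6a1, chr10:76726045-76726294, minus strand: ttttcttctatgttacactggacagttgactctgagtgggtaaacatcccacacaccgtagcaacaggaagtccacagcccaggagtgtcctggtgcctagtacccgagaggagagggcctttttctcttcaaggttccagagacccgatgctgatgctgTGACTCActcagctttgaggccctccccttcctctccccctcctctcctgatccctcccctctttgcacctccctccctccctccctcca
Col6a2, chr10:76623631-76623880, minus strand: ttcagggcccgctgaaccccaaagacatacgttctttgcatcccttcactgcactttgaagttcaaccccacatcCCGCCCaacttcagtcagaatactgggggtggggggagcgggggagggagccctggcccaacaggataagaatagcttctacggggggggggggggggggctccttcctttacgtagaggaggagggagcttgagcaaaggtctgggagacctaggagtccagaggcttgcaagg
Col8a2, chr4:126286544-126286793, plus strand: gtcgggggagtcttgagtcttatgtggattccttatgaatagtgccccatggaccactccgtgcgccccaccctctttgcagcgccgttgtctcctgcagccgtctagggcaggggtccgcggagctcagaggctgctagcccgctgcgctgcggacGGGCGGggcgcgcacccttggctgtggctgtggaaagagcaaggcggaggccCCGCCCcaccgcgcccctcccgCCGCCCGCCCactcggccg
Col1a2, chr6:4505368-4505617, plus strand: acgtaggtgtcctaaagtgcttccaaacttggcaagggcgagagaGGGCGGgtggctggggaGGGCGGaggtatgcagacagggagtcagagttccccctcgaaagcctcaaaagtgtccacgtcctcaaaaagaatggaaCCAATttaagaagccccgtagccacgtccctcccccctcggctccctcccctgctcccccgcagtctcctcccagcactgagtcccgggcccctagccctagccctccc
Of the 11 measured collagens, 10 had a promoter in this table. Each gave 1 window, the most upstream, while the table lists several windows for some genes, so the shares below are not like for like. The GC box was present in 8 of these 10 windows, against 32.7% of the 32851 windows of the table, and CCAAT in 4 of 10, against 33.8%. The 8 include Col11a1, Col16a1 and Col23a1, which were not higher in CD34+ cells, and leave out Col6a1. The AP-1 letters were found in 1 window, that of Col6a1, against 6.75% of all windows. TATAAA was found in none of the 10, against 12.4% of all windows, which says only that these letters are not in the windows read. The adjacent Col6a1 and Col6a2 windows shared none of the motifs searched.

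Both sort markers were lowest in IFE cells. Gli1 lay at 8.82 and 8.36 in Gli1+ cells, between 7.06 and 8.42 in CD34+ cells and between 5.01 and 5.32 in IFE cells; CD34+ replicate 2 was thus above Gli1+ replicate 3. Cd34 was at 8.18 or more on every Gli1+ and CD34+ array against at most 6.31 in IFE cells. Of 8 keratinocyte markers 7 were on the array, and these 7 were detected on all 8 arrays. Between 9925 and 12601 probes were detected per array, fewest on Gli1+ replicate 3. Across genes, which are not independent replicates, pairs of CD34+ arrays correlated at 0.934 to 0.945, pairs of IFE arrays at 0.943 to 0.950 and the Gli1+ pair at 0.820. Each array is 1 sorted sample from a pool of 2 mice. The p-values set a group difference against the spread between arrays within groups, pooled over all 3 groups. Same-numbered samples are taken to share a pool, and the main fit does not use this pairing. In sorted bulk samples, fewer cells of a type and less RNA per cell cannot be told apart.

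On the CD34+ arrays 9, 10 and 9 of the 29 collagens were detected by any probe, on the Gli1+ arrays 8 and 9, and on the IFE arrays 4, 7 and 4. The summed intensity of the 29 genes, which brighter probes dominate, was 2164.7 to 2563.8 on the CD34+ arrays, 1643.9 to 1800.6 on the Gli1+ arrays and 1100.1 to 1436.2 on the IFE arrays. The 3 groups did not overlap in this sum.

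**Figure D1:**
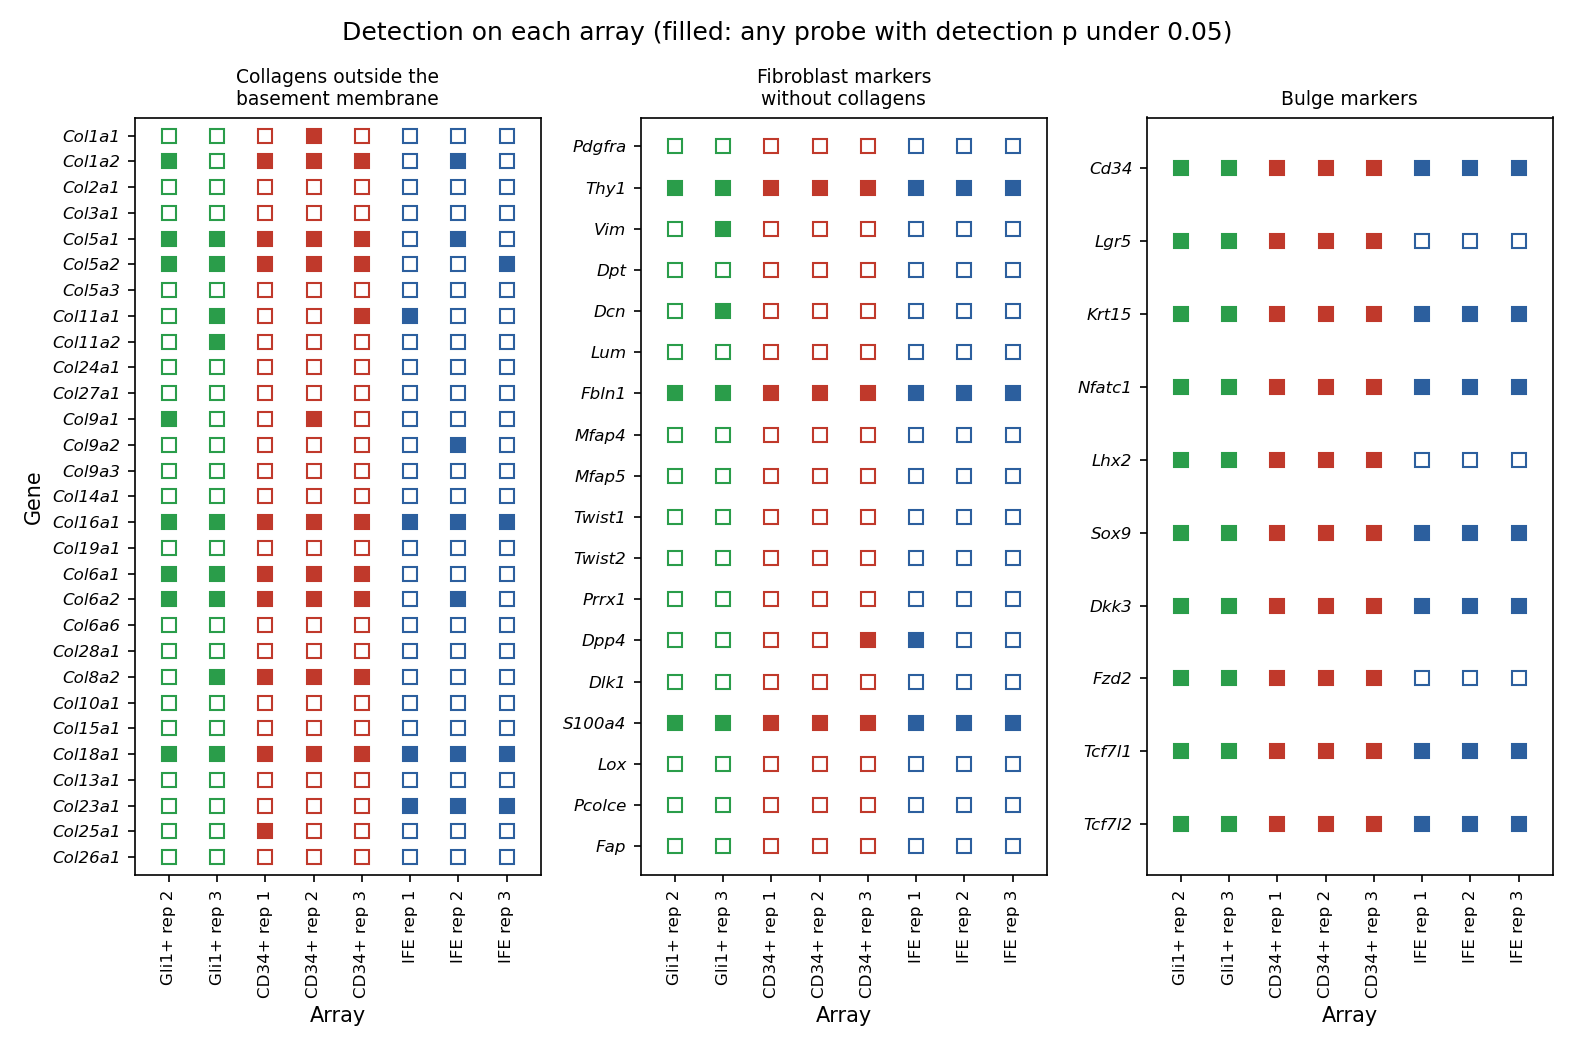
Detection of each gene on each of the 8 arrays, with a filled square where any probe of the gene had a detection p under 0.05, for the 29 collagens outside the basement membrane (left), 18 fibroblast markers that are not collagens (middle) and 10 bulge markers (right). Columns are arrays grouped as Gli1+, CD34+ and IFE; 14 of the 29 collagens have no filled square, and Col1a2, Col5a1, Col5a2, Col6a1, Col6a2 and Col8a2 are filled on every CD34+ array.

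Between CD34+ and IFE cells, 6 of the 11 measured collagens were higher in CD34+ cells and 1 was higher in IFE cells. Of all 9545 genes, 2.94% were higher in CD34+ cells and 1.85% in IFE cells by the same rule. The 11 genes were kept by a detection filter that a gene high in 1 group passes more easily, so the count describes the 11 and is not support for a property of all 29; 18 of the 29 have no test. The median difference of the 11 was 2.37, beside -0.01 for all genes. For 8 of the 11 the 2 groups did not overlap, a pattern that 27.7% of all genes showed.

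The collagen VI chains rose in CD34+ cells. Col6a1, the α1 chain of type VI collagen, had log2 levels of 7.63, 8.17 and 7.55 on the CD34+ arrays against 5.13, 4.71 and 4.59 on the IFE arrays, and 5.69 and 5.90 on the Gli1+ arrays. It was detected on every CD34+ and Gli1+ array and on no IFE array. By this probe, its brightest, the 3 groups were separate from each other, with Gli1+ cells in between. The CD34+ level exceeded the IFE level by 2.97 ± 0.29 (adjusted p = 0.000605), at least 5.69-fold. Col6a2, the α2 chain, stood at 7.65, 7.51 and 7.05 in CD34+ cells, 7.83 and 6.95 in Gli1+ cells and 4.43, 5.26 and 4.54 in IFE cells, where 1 of 3 arrays detected it. CD34+ and Gli1+ arrays overlapped, and both lay above IFE. The CD34+ minus IFE difference was 2.66 ± 0.35 (adjusted p = 0.00269), 6.31-fold as fitted. Col6a6, a further type VI chain, and the related Col28a1 were detected on no array. The α3 chain (Col6a3), with which the α1 and α2 chains assemble, had no probe under its symbol on the array.

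Col6a1 had 2 further probes that passed the detection filter, and they repeated the direction with smaller sizes. The first of these read 6.20, 6.87 and 7.14 in CD34+ cells against 5.14, 4.67 and 4.74 in IFE cells, a difference of 1.89 ± 0.44 (limma over all kept probes, adjusted p = 0.0438). The second read 6.57, 6.08 and 5.32 against 4.97, 4.54 and 4.56, a difference of 1.30 ± 0.35 that missed the threshold (adjusted p = 0.0763). On all 3 probes the CD34+ and IFE arrays did not overlap. In Gli1+ cells the first of these further probes read 4.69 and 6.39, and the second 4.74 and 4.59, neither detected. Both probes thus overlapped the IFE arrays there. Their Gli1+ minus CD34+ differences of -1.20 ± 0.50 and -1.33 ± 0.39 missed the threshold (limma over all kept probes, adjusted p = 0.262 and 0.129).

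Col8a2, a chain of the short-chain network collagen VIII, behaved like the brightest Col6a1 probe in its levels. It read 7.22, 7.79 and 7.65 in CD34+ cells, 5.24 and 5.85 in Gli1+ cells and 4.51, 4.95 and 4.61 in IFE cells. All CD34+ arrays, 1 of 2 Gli1+ arrays and no IFE array detected it. The CD34+ minus IFE difference was 2.87 ± 0.30 (adjusted p = 0.000734), at least 4.86-fold. Col10a1, the related network collagen of growth cartilage, was detected on no array, and Col8a1 had no probe under its symbol.

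Of the fibrillar collagens, 4 of 11 were measured, and 2 of these 4, Col5a2 and Col1a2, were higher in CD34+ than in IFE cells. Col5a2, a chain of the type V collagen that nucleates thin fibrils, read 6.66, 7.09 and 7.58 in CD34+ cells, 6.02 and 6.72 in Gli1+ cells and 4.62, 4.75 and 5.37 in IFE cells. It was detected on all CD34+ and Gli1+ arrays and on 1 IFE array. Every CD34+ array was above every IFE array, and the difference was 2.20 ± 0.35 (adjusted p = 0.00694), 4.59-fold as fitted. Col1a2, the α2 chain of type I collagen, read 8.01, 7.75 and 7.53 in CD34+ cells and 4.52, 5.28 and 4.99 in IFE cells, a difference of 2.83 ± 0.56 (adjusted p = 0.0191), 7.11-fold as fitted, with 1 of 3 IFE arrays detecting it. The 2 Gli1+ arrays, which enter the same error estimate, stood apart at 7.23 and 4.65, the latter not detected. Without any 1 of the CD34+ or IFE arrays Col1a2 missed the threshold (adjusted p between 0.0612 and 0.0905), with differences that stayed at 2.63 or more.

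Col5a1, the partner chain of Col5a2, missed the threshold in CD34+ cells although the groups did not overlap. Its CD34+ levels were 6.12, 8.39 and 7.73, its Gli1+ levels 8.57 and 6.87 and its IFE levels 4.96, 5.33 and 4.85. CD34+ replicate 1 was the lowest of the 5 CD34+ and Gli1+ arrays, and 1 IFE array detected the probe. The difference was 2.36 ± 0.59 (adjusted p = 0.0528). It passed without CD34+ replicate 1 (3.01, adjusted p = 0.0194), with only these 2 groups fitted (adjusted p = 0.0176) and with the replicate number as a block (adjusted p = 0.0314). Col11a1, the minor fibrillar collagen best known from cartilage, stayed between 4.51 and 5.74 by its measured probe, which was detected on 1 CD34+ and 1 IFE array, and differed by 0.07 ± 0.35 (adjusted p = 0.957). Another Col11a1 probe was detected on Gli1+ replicate 3 alone, at 5.86.

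The 7 other fibrillar collagens were not measured. Col1a1, the chain that pairs with Col1a2 in type I collagen, was detected on CD34+ replicate 2 alone, at 5.83 against 4.54 to 4.78 on the other arrays. Neither of the 2 probes of Col3a1, the type III collagen of skin and vessels, was detected on any array, with levels between 4.49 and 4.98. Col3a1 neighbours Col5a2 on chromosome 1, so of this adjacent pair 1 gene was higher in CD34+ cells and the other was not detected. Col11a2 was detected on Gli1+ replicate 3 alone, at 5.83. Col2a1, Col5a3, Col24a1 and Col27a1 were detected on no array.

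**Figure D2:**
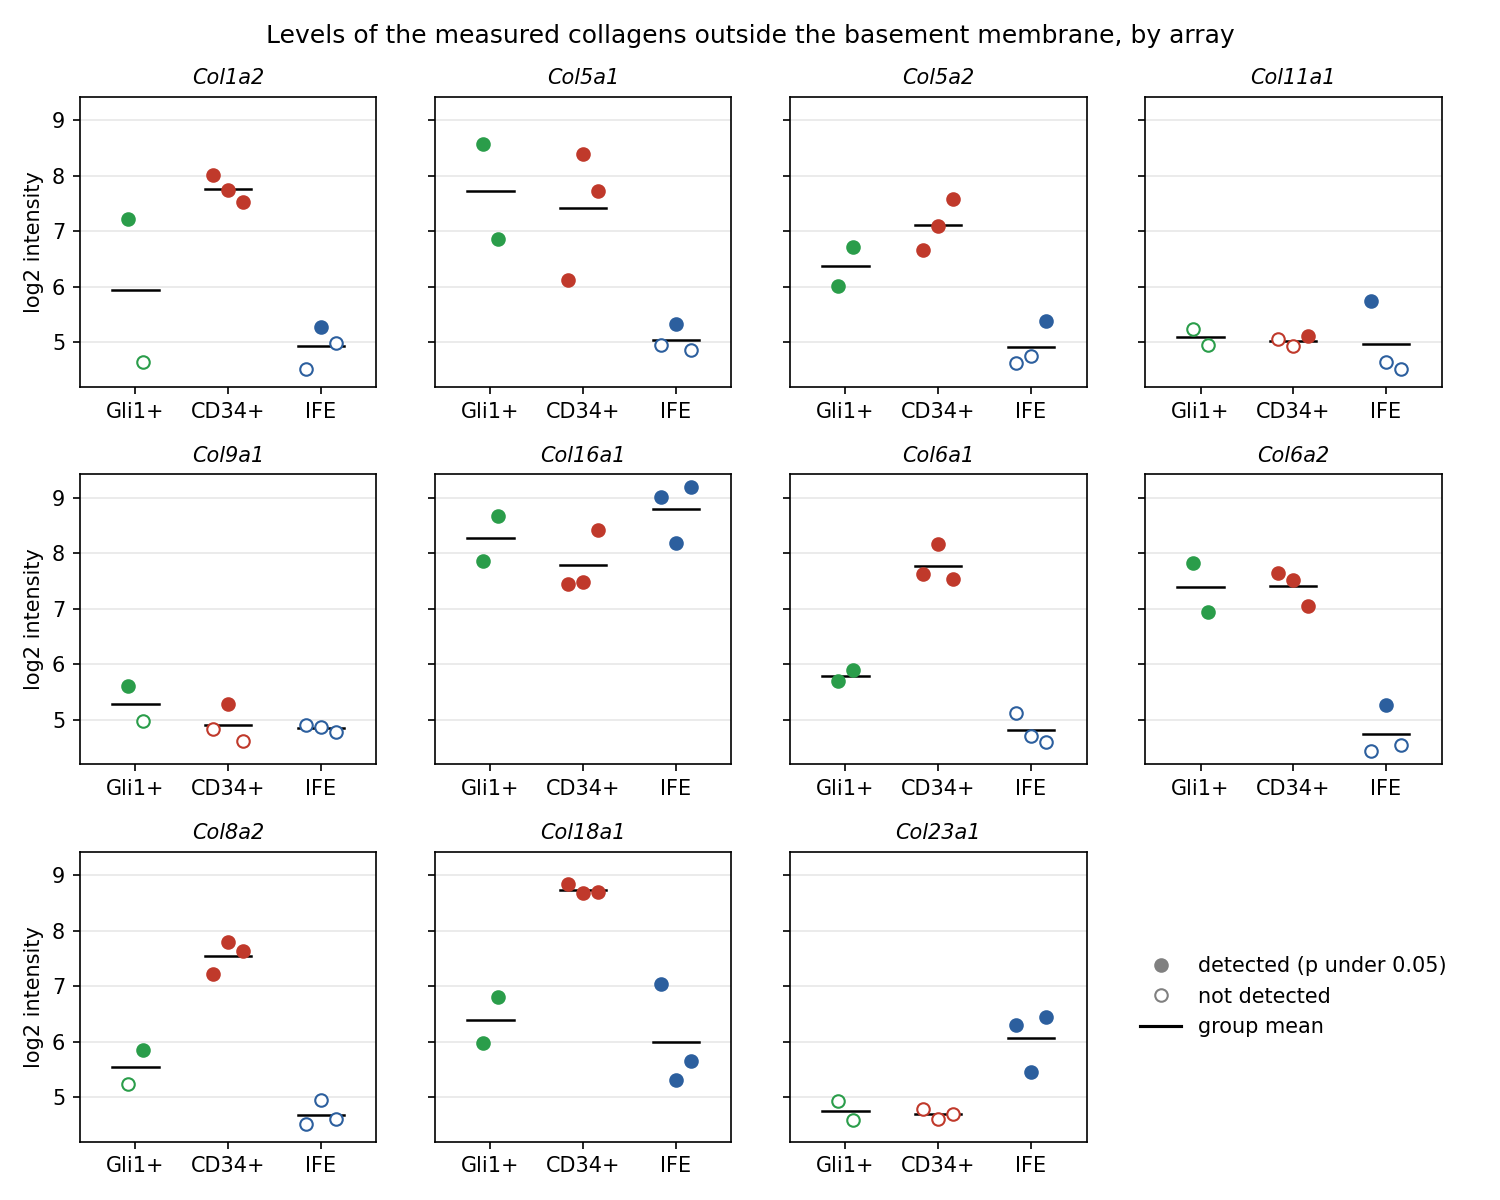
Normalised log2 intensity of the 11 measured collagens on each of the 8 arrays, 1 panel per gene, with filled points for detected and open points for undetected values and a line at each group mean. Col6a1, Col6a2, Col8a2, Col5a2, Col18a1 and Col1a2 have all 3 CD34+ points above all 3 IFE points, and Col23a1 is detected in IFE cells only.

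Col18a1 encodes type XVIII collagen, a proteoglycan of basement membrane zones and the precursor of endostatin. Its brighter probe read 8.84, 8.69 and 8.71 in CD34+ cells, 5.98 and 6.81 in Gli1+ cells and 7.05, 5.30 and 5.66 in IFE cells, and it was detected on all 8 arrays. All CD34+ arrays were above all others. The difference from IFE cells was 2.74 ± 0.44 (adjusted p = 0.00708), 6.70-fold. A second kept probe of Col18a1 did not show this: it read 5.30, 5.22 and 4.83 in CD34+ cells against 5.90, 4.57 and 4.59 in IFE cells, a difference of 0.10 ± 0.42 (adjusted p = 0.952). With the mean of both probes the difference was 1.42 (adjusted p = 0.0662). The related type XV chain, Col15a1, was detected on no array.

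Of the 6 fibril-associated collagens on the array, 2 were measured and neither passed the threshold. Col16a1, a fibril-associated collagen found near the dermal-epidermal junction, was detected on all 8 arrays, at 7.45, 7.49 and 8.42 in CD34+ cells, 7.86 and 8.68 in Gli1+ cells and 9.02, 8.19 and 9.19 in IFE cells. The CD34+ and IFE arrays overlapped, and the difference was -1.02 ± 0.40 (adjusted p = 0.225). Col9a1, a chain of the cartilage collagen IX, stayed at or below 5.60 and was detected on 1 Gli1+ and 1 CD34+ array, with a difference of 0.06 ± 0.30 (adjusted p = 0.955). Col9a2 was detected on IFE replicate 2 alone, and Col9a3, Col14a1 and Col19a1 on no array.

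Col23a1, a transmembrane collagen that can be shed from the cell surface, ran the other way. It read 6.30, 5.46 and 6.44 on the IFE arrays, all detected, against 4.78, 4.61 and 4.69 in CD34+ cells and 4.93 and 4.59 in Gli1+ cells, none detected. The CD34+ level was lower by 1.38 ± 0.32 on the log2 scale (CD34+ minus IFE -1.38, adjusted p = 0.0379), at least 1.95-fold. The call was lost with the replicate number as a block (adjusted p = 0.0727). Leaving out any CD34+ array, or IFE replicate 1 or 3, ended it too, at adjusted p between 0.0995 and 0.161. Of the remaining members, Col13a1 and Col26a1 were detected on no array and Col25a1, with 5 probes, on CD34+ replicate 1 alone.

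The 4 genes that were closest to being measured, Col1a1, Col11a2, Col25a1 and Col9a2, had a best probe detected on 1 array. Just inside the filter, the measured probes of Col11a1 and Col9a1 were detected on 2 arrays each. In all, 26 member probes were detected on no array, at levels between 4.35 and 5.53, so 14 genes had no detected probe. With the detection p under 0.01 the measured members were 9 genes, and with 1 array sufficing 15.

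Between Gli1+ and IFE cells 1 of the 11 measured collagens, Col6a2, passed the threshold, against 2.16% of all genes called, made up of 1.3% that were higher in Gli1+ cells and 0.859% that were higher in IFE cells. Its difference was 2.64 ± 0.40 (adjusted p = 0.0129), 6.25-fold as fitted. The call was lost without IFE replicate 1 (adjusted p = 0.0610) or IFE replicate 3 (adjusted p = 0.0657), and with these 2 groups fitted alone (adjusted p = 0.0735). The median of the 11 was 0.86, beside -0.05 for all genes, and 7 of 11 did not overlap, against 31.6% of all genes. The 2 Gli1+ arrays differed widely for 2 fibrillar genes. Without either of them the group has 1 array and no spread of its own, so only differences are given for such fits. Col5a1 differed from IFE cells by 2.67 ± 0.66 (adjusted p = 0.0716) and passed without CD34+ replicate 1 (adjusted p = 0.0465). Without Gli1+ replicate 3 its difference was 3.52. Col1a2 differed by 1.00 ± 0.62 (adjusted p = 0.448), by 2.30 without Gli1+ replicate 3 and by -0.29 without Gli1+ replicate 2.

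The remaining members gave smaller or unsettled values in Gli1+ cells. Col5a2 was above all IFE arrays on both Gli1+ arrays, with a difference of 1.45 ± 0.40 (adjusted p = 0.0957), and of 1.80 without Gli1+ replicate 2. Col23a1 gave -1.31 ± 0.35 (adjusted p = 0.0924), and -1.48 without Gli1+ replicate 2. Col6a1 gave 0.99 ± 0.33 (adjusted p = 0.147), and Col8a2 0.86 ± 0.33 (adjusted p = 0.215). Col18a1 was near the IFE level (0.39 ± 0.50, adjusted p = 0.738), as the plot of levels shows, and Col16a1, Col9a1 and Col11a1 had adjusted p-values of 0.593, 0.545 and 0.910.

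Set directly against CD34+ cells, Gli1+ cells had less Col8a2 and, by its brightest probe, less Col6a1. By limma these 2 of the 11 measured collagens were lower and 0 higher (4 lower and 0 higher at an unadjusted p under 0.05), against 0.849% of all genes higher in CD34+ cells and 0.576% higher in Gli1+ cells. Col6a1 was lower by 3.97-fold (-1.99 ± 0.33, adjusted p = 0.0291) and Col8a2 by 4.03-fold as fitted (-2.01 ± 0.33, adjusted p = 0.0294). With the replicate number as a block both calls were lost (adjusted p = 0.0923 and 0.0774), as in the fit of these 2 groups alone (0.133 and 0.140). Both were also lost without any 1 of the CD34+ arrays or without IFE replicate 2 or 3, and Col8a2 without IFE replicate 1, with adjusted p between 0.0565 and 0.104 and differences between -2.18 and -1.79. Col18a1 missed the threshold at -2.35 ± 0.50 (adjusted p = 0.0520) although no Gli1+ array reached a CD34+ array, and passed without IFE replicate 1 (adjusted p = 0.0466). Without Gli1+ replicate 3 its difference was -2.76.

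By the probe tested for each gene, the type VI chains parted here. Col6a2 was nearly level between Gli1+ and CD34+ cells (-0.01 ± 0.40, adjusted p = 0.993, and 0.21 with cyclic loess in place of quantile normalisation), while its neighbour Col6a1 was lower in Gli1+ cells; the difference between the 2 genes' changes was not tested. Col5a1 (0.31 ± 0.66) and Col5a2 (-0.74 ± 0.40) had adjusted p-values of 0.847 and 0.369. Col1a2 differed by -1.83 ± 0.62 (adjusted p = 0.173), and by -3.12 without Gli1+ replicate 2. The median of the 11 was -0.01, beside -0.05 for all genes, and 4 of the 11 did not overlap, against 31.4% of all genes. The 3 comparisons share arrays, so their values stand side by side and are not independent.

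**Figure D3:**
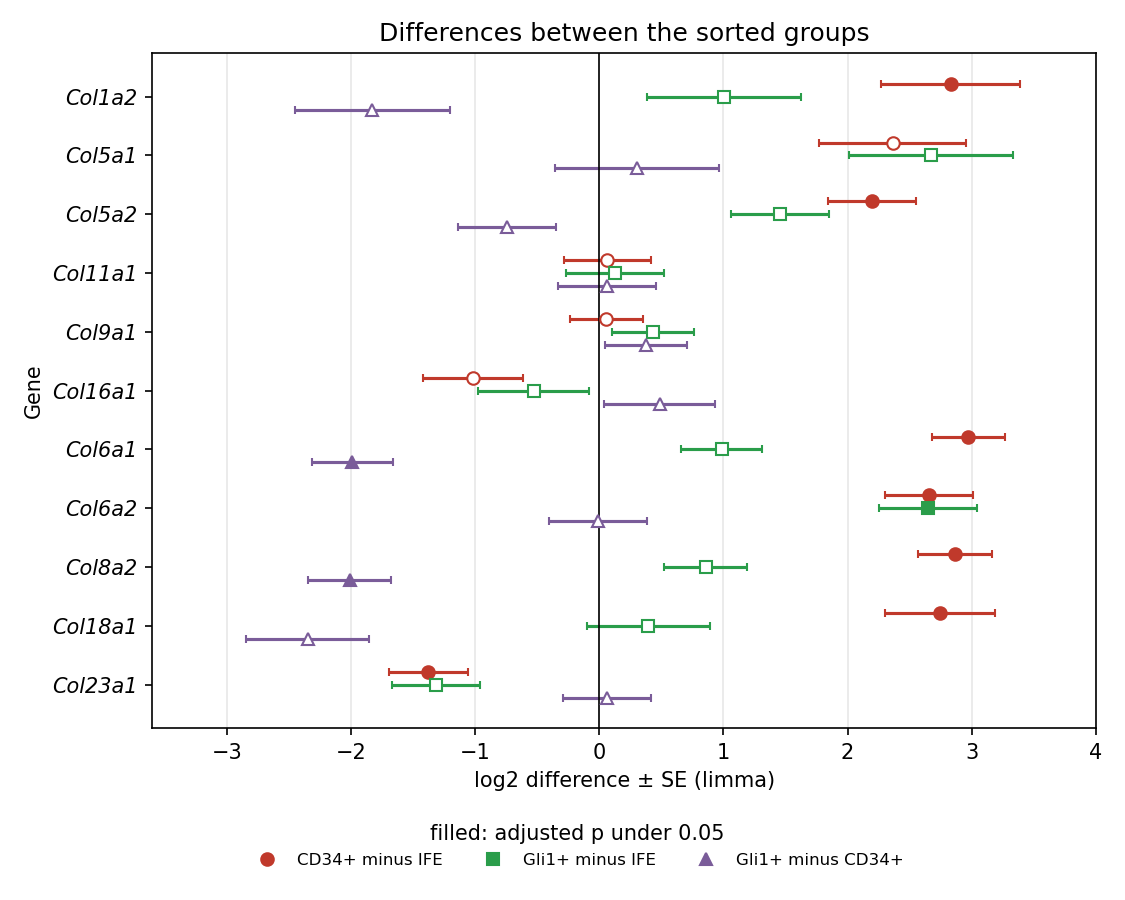
Log2 differences ± SE from limma for the 11 measured collagens in CD34+ minus IFE (circles), Gli1+ minus IFE (squares) and Gli1+ minus CD34+ (triangles) cells, filled where the adjusted p is under 0.05. Of the CD34+ minus IFE values 6 are filled above 0 and 1 below, while Col6a2 is the filled value of Gli1+ minus IFE and Col6a1 and Col8a2 are those of Gli1+ minus CD34+.

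The basement membrane and anchoring collagens that the set leaves out were measured for 7 of 8 genes, and by limma 0 of 7 passed the threshold in any of the 3 comparisons, with 1 or 2 at an unadjusted p under 0.05 in each. Col17a1, the hemidesmosomal collagen, had means of 11.79 in CD34+ cells and 11.40 in IFE cells (0.40 ± 0.26, adjusted p = 0.509). Col7a1, the anchoring fibril collagen, differed by 0.31 ± 0.30 (adjusted p = 0.691). The nearest to a call were 2 type IV chains in Gli1+ against IFE cells. Col4a3 gave 1.70 ± 0.38 (adjusted p = 0.0515) and passed with the mean of its probes (adjusted p = 0.0447). Without Gli1+ replicate 3 its difference was 2.33. Col4a2 gave 1.25 ± 0.54 (adjusted p = 0.261), and 2.06 without Gli1+ replicate 2. Against CD34+ cells Col4a3 gave 1.13 ± 0.38 (adjusted p = 0.164), and 1.76 without Gli1+ replicate 3.

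Collagen biosynthesis needs enzymes that hydroxylate, fold and trim the chains. Of 15 folding and modification enzymes on the array 12 were measured, and by limma 0 of 12 passed in any comparison, with 2 at an unadjusted p under 0.05 in each. The nearest in CD34+ against IFE cells were the prolyl hydroxylase subunits P4ha2 (-0.92 ± 0.39, adjusted p = 0.269) and P4ha1 (-0.78 ± 0.34, adjusted p = 0.275), both with negative values. The lysyl hydroxylase Plod3 gave -2.42 ± 0.59 in Gli1+ minus CD34+ cells (adjusted p = 0.0787), and -3.59 without Gli1+ replicate 2.

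Of 11 enzymes and enhancers of procollagen processing and crosslinking 3 were measured. Of these 3, 2 rose in CD34+ against IFE cells, against 2.94% of all genes. No IFE array detected these 2, so they passed the detection filter through the other groups, and 8 of the 11 have no test. Pcolce2, an enhancer of the removal of the procollagen C-propeptide, read 7.75, 8.89 and 8.61 in CD34+ cells, 5.93 and 6.15 in Gli1+ cells and 4.84, 5.11 and 5.23 in IFE cells. Its order of groups was that of Col8a2 and of the brightest Col6a1 probe, with no overlap between any 2 groups. It was higher in CD34+ cells by 3.36 ± 0.34 (adjusted p = 0.000631), at least 8.85-fold, and lower in Gli1+ than in CD34+ cells by 5.21-fold (-2.38 ± 0.37, adjusted p = 0.0248). Blocking on replicate number ended the latter call (adjusted p = 0.0711), as did leaving out any CD34+ array or IFE replicate 2 or 3 (adjusted p between 0.0573 and 0.100). Tll1, a protease that removes that propeptide, was at least 3.04-fold higher in CD34+ cells (2.12 ± 0.38, adjusted p = 0.0125). It missed the threshold without CD34+ replicate 2 or 3 or IFE replicate 2 or 3 (adjusted p between 0.0586 and 0.0680). The crosslinking enzyme Lox and the fibroblast enhancer Pcolce were detected on no array.

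Of 12 measured proteins that bind collagen in the matrix, 6 were higher and 1 lower in CD34+ than in IFE cells, against 2.94% and 1.85% of all genes. Fbln1, which encodes fibulin-1, rose by 3.33 ± 0.33 (adjusted p = 0.000631), Postn, which encodes periostin, by 3.21 ± 0.29 (adjusted p = 0.000370), tenascin-C (Tnc) by 2.65 ± 0.41 (adjusted p = 0.00535) and Sparc by 2.20 ± 0.35 (adjusted p = 0.00658). The lower gene was thrombospondin 2 (Thbs2, -2.11 ± 0.41, adjusted p = 0.0182), named after its value was seen. It missed the threshold without any 1 CD34+ or IFE array except CD34+ replicate 3 (adjusted p between 0.0572 and 0.0860), with median centring (adjusted p = 0.0576) and on the deposited values (adjusted p = 0.0828). In Gli1+ against IFE cells 5 of the 12 were higher and 1 lower, against 1.3% and 0.859% of all genes. Asporin (Aspn), which binds fibrillar collagen, read 7.59 and 8.10 in Gli1+ cells, 6.94, 6.25 and 5.50 in CD34+ cells and at most 4.80 in IFE cells. Its Gli1+ minus IFE difference was 3.19 ± 0.42 (adjusted p = 0.00755), at least 5.94-fold, and both Gli1+ arrays were above all CD34+ arrays (1.61 ± 0.42, adjusted p = 0.0907). Fbln1 (2.94 ± 0.37), Tnc (3.20 ± 0.46) and Postn (2.17 ± 0.33) were the others with the smallest p (adjusted p = 0.00751, 0.0106 and 0.0130). With these 2 groups fitted alone the calls of Fbln1, Tnc and Postn ended (adjusted p = 0.0579, 0.0735 and 0.0717). The Postn call also ended when replicate number was blocked (adjusted p = 0.0576) or when 1 IFE array was left out (adjusted p between 0.0518 and 0.0610). In Gli1+ against CD34+ cells Sparc was the only 1 of the 12 past the threshold (-1.99 ± 0.39, adjusted p = 0.0447). This call ended under the replicate block (adjusted p = 0.0991), and when any 1 CD34+ or IFE array was left out (adjusted p between 0.0520 and 0.132).

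By limma 0 of 5 measured collagen receptors passed the threshold in each comparison, with 0 or 1 at an unadjusted p under 0.05. The nearest was the α2 integrin Itga2 in Gli1+ minus CD34+ cells (-1.45 ± 0.33, adjusted p = 0.0630, and -1.70 without Gli1+ replicate 2). Among 7 measured collagen-degrading proteases and their inhibitors, the inhibitor Timp2 was higher in CD34+ (3.82 ± 0.31, adjusted p = 0.000247) and in Gli1+ cells (2.99 ± 0.35, adjusted p = 0.00745) than in IFE cells; the latter call ended with these 2 groups fitted alone (adjusted p = 0.0579). The protease Mmp3 was detected on all IFE arrays and on no other array by its brighter probe. It was at least 2.33-fold lower in CD34+ (-1.48 ± 0.29, adjusted p = 0.0189) and at least 1.81-fold lower in Gli1+ cells (-1.60 ± 0.33, adjusted p = 0.0432). With the mean of its 2 kept probes both calls ended (-0.80, adjusted p = 0.116, and -0.77, adjusted p = 0.194), and they ended without background correction (adjusted p = 0.0566 and 0.0792) and on the deposited values (adjusted p = 0.120 and 0.203). Mmp14, the membrane-bound collagenase, was lower in Gli1+ cells than in IFE (-1.79 ± 0.34, adjusted p = 0.0307) and CD34+ cells (-2.00 ± 0.34, adjusted p = 0.0294). Under the replicate block Mmp3 was no longer called in Gli1+ against IFE cells (adjusted p = 0.105), and neither was Mmp14 against IFE or CD34+ cells (adjusted p = 0.0923 in both). Left-out arrays also ended these calls: without CD34+ replicate 1, 2 or 3 or IFE replicate 1 or 2 the adjusted p of Mmp3 in CD34+ against IFE cells was 0.0641 to 0.0816. In Gli1+ against IFE cells Mmp3 missed the threshold without any 1 CD34+ or IFE array (0.0669 to 0.133). Mmp14 missed it there without CD34+ replicate 1 or any IFE array (0.0550 to 0.110). Mmp14 against CD34+ cells missed it without any CD34+ or IFE array (0.0568 to 0.0999). With only the 2 groups compared in the fit, Mmp3 and Mmp14 were not called in Gli1+ against IFE cells (adjusted p = 0.137 and 0.0766), nor were Mmp14, Pcolce2 and Sparc in Gli1+ against CD34+ cells (adjusted p = 0.140, 0.138 and 0.125).

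**Figure D4:**
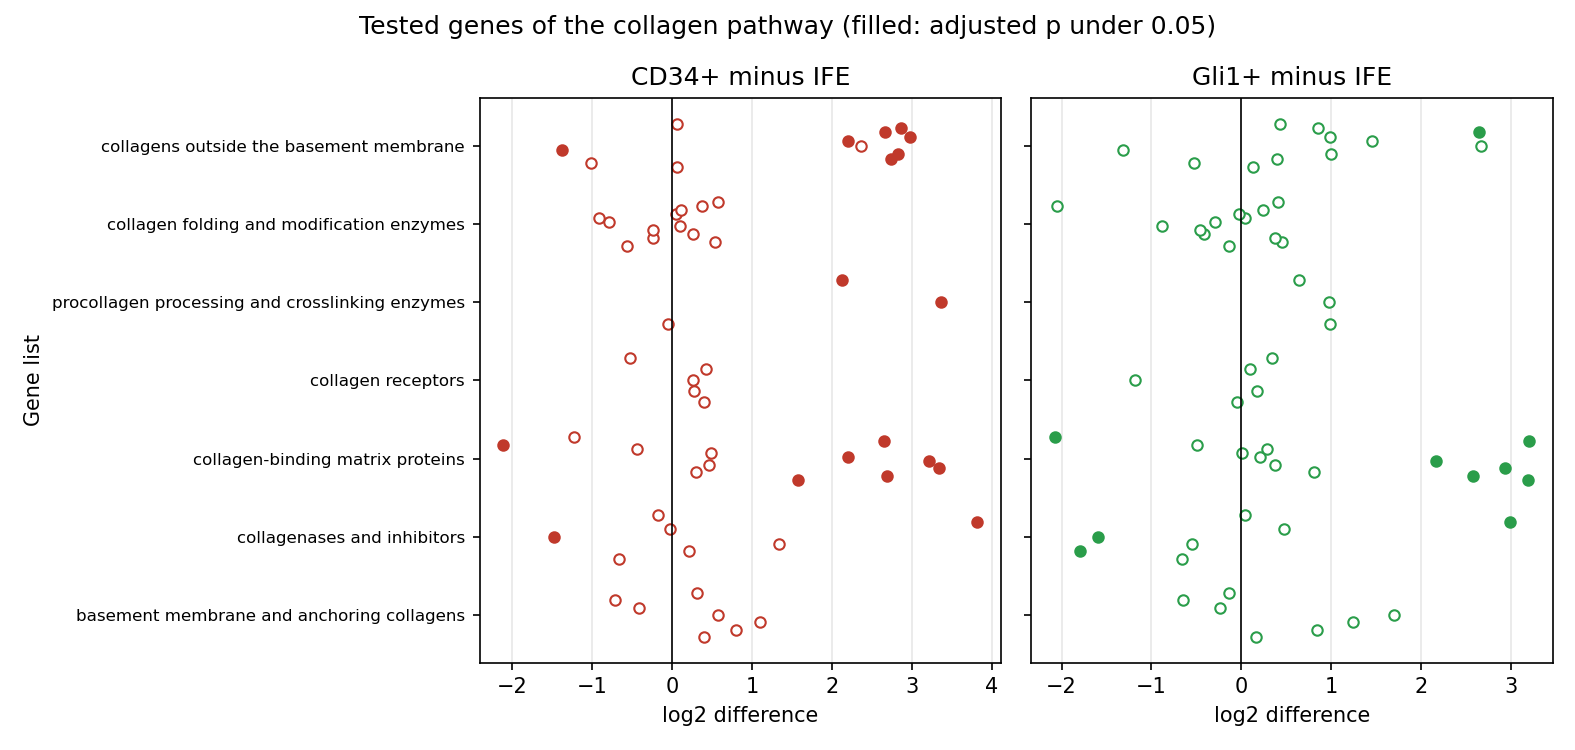
Log2 differences of the measured genes of each collagen-related list in CD34+ minus IFE cells (left) and Gli1+ minus IFE cells (right), 1 point per gene, filled where the adjusted p is under 0.05. Filled points above 2 in CD34+ cells lie among the collagens outside the basement membrane, the processing enzymes, the collagen-binding proteins and the inhibitors, and the rows for folding enzymes, receptors and basement membrane collagens hold none.

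Fibroblasts are the dermal cells that make most of these collagens, and their markers were read on the same arrays. Of 18 fibroblast markers other than collagens, 12 were detected on no array, among them the receptor Pdgfra, the matrix proteins Lum and Dpt and the transcription factor Twist2. The proteoglycan decorin (Dcn) and vimentin (Vim) were detected on Gli1+ replicate 3 alone, at 7.75 and 6.37 for the brighter Dcn probe and Vim, against at most 5.04 and 4.99 on every other array. On that array Col1a2 was not detected (4.65), Col5a1, Col5a2, Col6a1, Col6a2 and Col8a2 were, and its values are left out in turn above. No CD34+ array detected Pdgfra, Dpt, Lum, Twist2, Dcn or Vim. Thy1 was detected on every CD34+ array, and S100a4 and Fbln1 of this list were higher in CD34+ than in IFE cells. Every CD34+ array also detected Col1a2, Col5a1, Col5a2, Col6a1, Col6a2 and Col8a2. Whether carried-over dermal cells gave part of this signal was not tested.

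Of the list, 4 genes were measured, and in CD34+ and in Gli1+ against IFE cells 2 had positive and 2 negative differences. S100a4, a calcium-binding protein, was higher in CD34+ (3.80 ± 0.26, adjusted p = 0.000118) and Gli1+ cells (2.29 ± 0.29, adjusted p = 0.00751) than in IFE cells, as was Fbln1, which is also on the matrix list. With Gli1+ and IFE cells fitted alone the Gli1+ call of S100a4 ended (adjusted p = 0.0579), as did that of Fbln1. S100a4 was lower in Gli1+ than in CD34+ cells (-1.51 ± 0.29, adjusted p = 0.0432). Blocking on replicate number ended this call (adjusted p = 0.111), as did leaving out any 1 CD34+ or IFE array (adjusted p between 0.0738 and 0.127). Thy1 was detected on all 8 arrays between 9.21 and 10.52, with no call (CD34+ minus IFE -0.30 ± 0.32, adjusted p = 0.721). Dpp4, the remaining gene of the 4, had no call either. It gave -0.30 ± 0.32 in CD34+ minus IFE (adjusted p = 0.725) and -0.40 ± 0.36 in Gli1+ minus IFE cells (adjusted p = 0.615). The summed intensity of the 18 genes was 4479.4 to 5004.4 on the CD34+ arrays, 2989.6 to 3480.2 on the Gli1+ arrays and 1826.8 to 2254.0 on the IFE arrays. This sum, which brighter probes dominate, had the group order of the collagen sum. The number of the 18 genes detected did not: 3 to 4 on the CD34+ arrays, 3 to 5 on the Gli1+ arrays and 3 to 4 on the IFE arrays. The part of this list in the collagen differences was not tested.

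Markers of other cell types were detected to different extents. Dermal papilla markers gave 1 measured gene of 10 on the array, endothelial markers 1 of 8, dermal sheath, smooth muscle and pericyte markers 4 of 9, Schwann cell markers 3 of 5 and adipocyte and skeletal muscle markers 0 of 7. By limma these lists had 0 genes past the threshold in CD34+ against IFE cells, and at an unadjusted p under 0.05 they had 1, 0, 1, 2 and 0. Of the latter genes, those of the dermal papilla and Schwann cell lists were lower in CD34+ cells, and that of the pericyte list was higher. The nearest of the pericyte list was the proteoglycan Cspg4 (1.39 ± 0.36, adjusted p = 0.0604), which passed in the fit of these 2 groups alone (adjusted p = 0.0177). Immune cell markers were measured for 6 of 6 genes. By limma 0 of these 6 were called in any comparison. At an unadjusted p under 0.05 there was 1 in CD34+ against IFE cells, lower in CD34+ cells. There were 4 in Gli1+ against IFE cells (3 higher in Gli1+ cells) and 1 in Gli1+ against CD34+ cells, higher in Gli1+ cells. The summed intensity of the 6 genes was 705.7 to 890.0 on the Gli1+ arrays, above the 414.5 to 477.8 of the CD34+ and the 285.3 to 525.2 of the IFE arrays. The summed intensity of the 7 keratinocyte markers was 21738.8 to 26128.8 in CD34+ and 22966.7 to 26494.6 in IFE cells. The melanocyte list had 1 of 3 measured genes past the threshold, Mitf, which was higher than in IFE cells in CD34+ (3.05 ± 0.35, adjusted p = 0.00123) and in Gli1+ cells (2.39 ± 0.39, adjusted p = 0.0194). The latter call ended under the replicate block (adjusted p = 0.0536), with these 2 groups fitted alone (adjusted p = 0.0815) and without any 1 IFE array (adjusted p between 0.0738 and 0.0803). The sum of the melanocyte list was 390.8 to 499.0 in CD34+, 289.2 to 444.7 in Gli1+ and 170.9 to 204.7 in IFE cells. Bulge markers were measured for 10 of 10 genes, of which 6 were higher in CD34+ cells (2.94% of all genes) and 5 in Gli1+ cells (1.3% of all genes) than in IFE cells, with summed intensities of 10212.3 to 12284.6 in CD34+, 6720.9 to 7616.2 in Gli1+ and 3713.8 to 4357.3 in IFE cells. Cd34, by which the CD34+ and IFE gates were sorted, is among the called bulge genes of both comparisons and in their sum, so its part was set by the sort. The sum of the bulge list thus had the group order of the collagen sum. That of the melanocyte list was lowest in IFE cells but overlapped between CD34+ and Gli1+ cells, and its genes Dct, Tyr and Tyrp1 were detected on no array. The sum of the immune list was highest in Gli1+ cells. The part of these lists in the collagen differences was not tested either.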

How the data were processed

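RNA of 8 sorted samples (Gli1+ 2, CD34+ 3, IFE 3) was extracted with Trizol and biotin-labelled after NuGEN Ovation Pico amplification, per the labels' protocols, and read with GenomeStudio 2010.3, per the submitters' processing notes. Per the file headers, the deposited matrix gives each probe's bead-averaged intensity, the standard error of this signal over beads, the count of beads and a detection p-value. The authors' deposited intensity values were raw, and the deposited log2 table equalled the log2 of these intensities within 5.53e-05. No genome build is given in the sources used here.

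Probes were named by the platform's symbols (23978 of 25697 with 1 symbol, 1719 with none). Intensities were processed with neqc (negative controls inferred from detection p-values, offset 16) in limma 3.58.1 under R 4.3.3. Probes with a detection p under 0.05 on 2 or more arrays were kept (14252, of which 13361 had a gene), and the probe with the highest mean stood for each of the 9545 genes; 2588 genes had several. All 8 arrays entered 1 lmFit and eBayes fit of group means (residual degrees of freedom 5, prior 4.84), two-sided, with Benjamini-Hochberg adjustment within each comparison. The procedure was tested on simulated data. Errors are SE. Precision is limited by the number of arrays.

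The members and all gene lists were chosen with earlier results of these data known. All members are accounted for; of other lists, up to 4 genes past the threshold with the smallest p are named per comparison, or up to 2 as values, besides Gli1, Cd34 and defining fibroblast markers. Same-numbered samples are taken to share a mouse pool, as the series' design reads; no label states it sample by sample. Their deviations from group means correlated at -0.0312 to 0.0909, and a blocked value is given beside a result whose call it changes. Further alternatives were background correction, normalisation, the deposited values, the detection filter, the choice of probe, fits of 2 groups and each array left out in turn.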

Additional observations from a re-analysis of the deposited data

How the results depend on the processing

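Arrays limit these results through background: 18 of the 29 collagens had no probe detected on 2 arrays, and the Gli1+ group had 2 arrays that resembled each other less than other replicates. Besides the fits with an array left out there were 11 alternatives. In CD34+ against IFE cells Col6a1, Col8a2, Col6a2 and Col5a2 stayed past the threshold in all 11, Col18a1 in 10, Col1a2 in 10 and Col23a1 in 7. Col5a1 entered in 3. Col6a1, Col8a2, Col6a2, Col5a2 and Col18a1 also stayed past it without any 1 CD34+ or IFE array. Log2 differences were smallest on intensities without background correction, at 1.48 for Col6a1, 1.41 for Col8a2, 1.32 for Col6a2, 1.01 for Col5a2 and 1.42 for Col1a2, and Col18a1 was smallest, at 1.42, with the mean of its probes. Col1a2 also missed the threshold without the detection filter (adjusted p = 0.0657), and Col23a1 with a normexp offset of 50, without background correction and on the deposited values (adjusted p = 0.0510, 0.0751 and 0.166). In Gli1+ against CD34+ cells Col18a1 passed under those 3 settings and under median centring (adjusted p between 0.0178 and 0.0365).

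With arrays left out in turn, 5 to 8 collagens and 189 to 820 of all genes were called in CD34+ against IFE cells, 0 to 3 and 39 to 1233 in Gli1+ against IFE cells, and 0 to 3 and 1 to 1196 in Gli1+ against CD34+ cells. Fits of 2 groups alone called 820 genes in CD34+ against IFE cells, 6 genes and 0 collagens in Gli1+ against IFE cells, and 1 gene and 0 collagens in Gli1+ against CD34+ cells. With the replicate block 67 genes were called in Gli1+ against IFE cells, and 1 gene and 0 collagens in Gli1+ against CD34+ cells; beyond the calls given beside their results, the block changed no call of a measured collagen or of the partner and marker genes refitted under it (up to 4 called genes a list, with Thbs2 and Mitf). A normexp offset of 50 and no background correction called 216 and 208 genes in Gli1+ against CD34+ cells. Median centring moved the median of all genes to 0.112 in CD34+ minus IFE and 0.114 in Gli1+ minus IFE cells, and 300 of 398 calls were then higher in CD34+ cells, against 281 of 458; the deposited values gave 306 of 389. In Gli1+ against IFE cells 184 of 222 calls were higher with median centring, 171 of 220 with cyclic loess and 158 of 170 on deposited values, against 124 of 206. The cause was not tested.

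Signs turned only for values that missed the threshold with all arrays and the main settings. In CD34+ minus IFE cells Col11a1 was -0.10 without the detection filter and -0.16 to 0.46 with arrays left out, and Col9a1 -0.13 to 0.20. In Gli1+ minus IFE cells left-out arrays gave Col11a1 -0.10 to 0.52, Col18a1 -0.0197 to 0.92, Col1a2 -0.29 to 2.30 and the receptor Mrc2 -0.26 to 0.94. In Gli1+ minus CD34+ cells they gave Col11a1 -0.0814 to 0.20, Col23a1 -0.10 to 0.23, Col5a1 -0.54 to 1.16 and Col6a2 -0.46 to 0.43. Col5a1 was -0.0383 with the replicate block, and Col6a2 was 0.0023 without background correction, 0.0196 with median centring, 0.21 with cyclic loess and 0.0291 on the deposited values. Col11a1 and Col9a1 have no value where detection on 3 arrays was required.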
